A study of Homo sapiens with 6 samples.

Results

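Serum amyloid A, C-reactive protein and the other classical acute-phase proteins were examined here as 10 genes taken by symbol from a table of all genes: SAA1, SAA2, SAA4, CRP, LBP, ORM1, ORM2, HP, SERPINA3 and LCN2. They occupied 11 of 58037 gene rows, because the symbol SERPINA3 stood on 2 rows. HepaRG, the cell line used, is a human hepatocellular carcinoma line whose cultures mature into hepatocyte-like cells beside biliary-like cells. The 6 poly-A RNA-seq libraries came from differentiated cultures at passages 15 to 18, which had 14 days of growth, 14 days of differentiation and 5 days in basal Williams E medium with insulin and the glucocorticoid hydrocortisone hemisuccinate. The control group (3 libraries) then received 0.02% bovine serum albumin (BSA) for 72 h. The fatty acid group (3 libraries) received palmitate and oleate (1 part to 2 parts, 0.5 mM) bound to the same 0.02% BSA for 72 h, as a model of steatosis. The labels do not say whether hydrocortisone stayed in the medium during those 72 h, nor whether each replicate was its own culture. The p-values therefore describe the scatter of these samples alone, and that scatter may be technical.

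Acute-phase proteins are plasma proteins whose output by hepatocytes shifts in inflammation, infection and injury. Interleukin-6 acts on hepatocytes through its receptor, JAK kinases and the transcription factor STAT3, and interleukin-1 and TNF act through NF-κB, with C/EBP factors shared between both arms and glucocorticoids acting with the cytokines. Positive acute-phase genes rise in this response, while negative ones such as albumin and transthyretin fall.

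Levels are FPKM as deposited (fragments scaled to gene length and to the assigned reads of the library), given as mean ± SD with n = 3 per group. Log2 fold changes are fatty acid minus control ± SE on the scale log2(FPKM + 0.5), where the change of a low gene comes out too small, and a gene was called when its limma p, adjusted over all genes tested by Benjamini-Hochberg, was under 0.05. Libraries held 6331372 to 11821423 reads in the control group and 8364570 to 15941353 in the fatty acid group. The share of reads from the mitochondrial genome was 13.6 ± 1.37% in controls and 10.3 ± 1.43% with fatty acid, and scaling to nuclear reads alone left the same number of the 10 genes called.

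Of the 10 genes, 6 were higher with fatty acid, none was lower and 4 did not pass. The background was 8.22% of the 14661 genes tested called higher, 4.68% called lower and 12.9% called in either direction. The split over all genes depended on the scaling, with 1205 higher and 686 lower here, 2615 and 408 with TPM and 779 and 818 with median-of-ratios scaling. The genes that rose were LCN2, CRP, SAA2, LBP, SAA1 and HP, with increases from 2.93-fold for LCN2 down to 1.31-fold for HP. The median log2 fold change of the 10 genes was 0.47, against 0.04 over all genes tested. In 8 of the 10 the groups did not overlap, as in 37.1% of all genes tested. Removing fatty acid replicate 1 or 2 left 5 called, without HP, and keeping all genes in the test left 4, without SAA1 and HP.

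**Figure D1:**
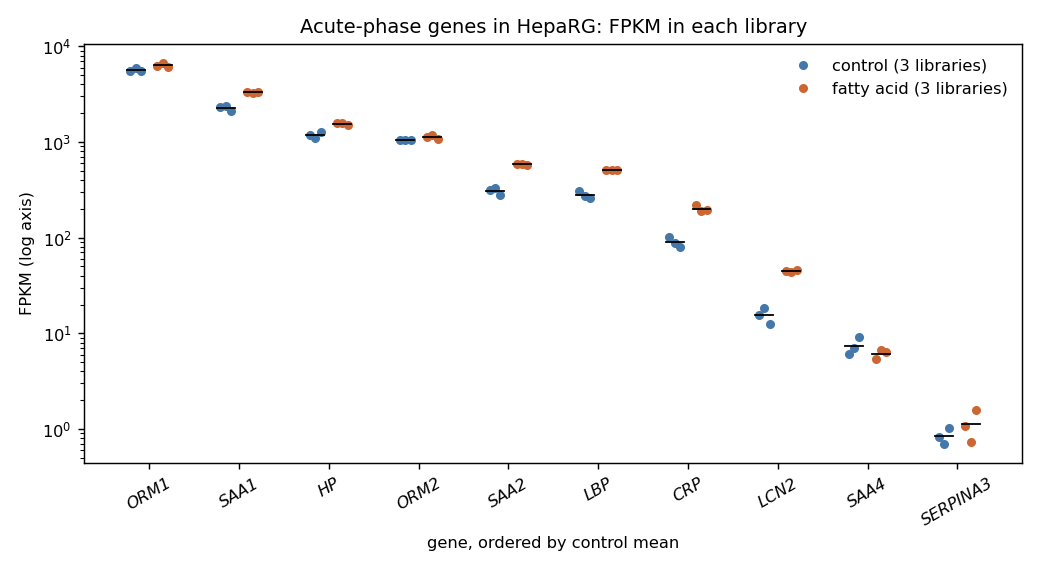
Deposited FPKM of the 10 acute-phase genes on a log axis, in order of the control mean, with 1 point per library and a black bar at each group mean. The levels run from 5633 FPKM for ORM1 to 0.845 FPKM for SERPINA3 in controls, and the fatty acid points of LCN2, CRP, SAA2, LBP, SAA1 and HP lie above all control points.

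ORM1, SAA1, HP and ORM2 were among the most abundant transcripts of the cultures. By mean FPKM, ORM1 ranked 12 of 58037 rows in controls and 9 with fatty acid, SAA1 19 and 16, HP 26 and 24, and ORM2 28 in both groups. SAA2 moved from rank 81 to 36, LBP from 88 to 44, CRP from 320 to 133 and LCN2 from 2424 to 748, whereas SAA4 stood at 4912 and 5843 and SERPINA3 at 13188 and 12154. The order of the control levels was ORM1, SAA1, HP, ORM2, SAA2, LBP, CRP, LCN2, SAA4 and SERPINA3. On the deposited FPKM scale, SAA2 and LBP were the neighbours that did not differ beyond their spread in controls, at 308 ± 26.6 and 281 ± 23.8 FPKM. With fatty acid they separated, at 584 ± 7.82 and 508 ± 4.77 FPKM. That closeness and the order of the genes depend on the gene lengths used, as described below.

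The 11 rows together held 1.54%, 1.54% and 1.56% of all reads in control replicates 1, 2 and 3. With fatty acid they held 2.04%, 2.08% and 1.97%. Of nuclear reads the share was 1.79 ± 0.036% in controls and 2.26 ± 0.0219% with fatty acid. HP had the largest share, 0.643 ± 0.0438% of all reads in controls and 0.841 ± 0.0231% with fatty acid, and ORM1 followed with 0.507 ± 0.0211% and 0.573 ± 0.0282%. In these bulk libraries, more cells that make a transcript and more RNA per cell cannot be told apart.

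**Figure D2:**
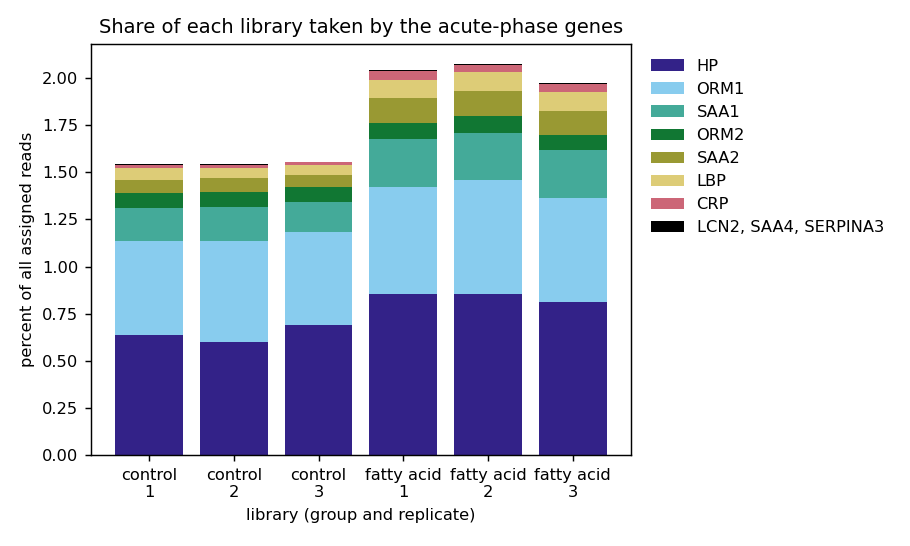
Percent of all assigned reads that each acute-phase gene took in each library, stacked from 0. The 3 control bars end between 1.54% and 1.56% and the 3 fatty acid bars between 1.97% and 2.08%, with HP and ORM1 making up the greater part of every bar.

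FPKM depends on the length a gene is given, and for some of these genes that length is the union of many transcripts. The deposited length of HP was 5405 bases, while its coding transcript in GENCODE 29 has 1482 bases. Here the coding transcript is the one with the longest coding sequence, and the longest of these where several tie. SAA2 was given 2227 bases for a coding transcript of 687 bases, LCN2 1598 bases for 631, of which 600 are coding, and SAA1 765 bases for 675. The levels that follow rest on this choice of transcript. Per kilobase of coding transcript the control levels became 4339 ± 296 for HP, 2560 ± 157 for SAA1, 999.9 ± 86.3 for SAA2 and 39.0 ± 7.33 for LCN2. HP thereby stood above SAA1, and the control level of SAA2 came close to that of ORM2, 1049 ± 6.58. SAA2 then lay far above LBP in controls, which stayed at 281 ± 23.8 because its deposited length equals that of its coding transcript, 1961 bases. The comparison between groups does not depend on this length, except through the added 0.5.

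The serum amyloid A genes lie together on chromosome 11 (GRCh38): SAA1 at 18266174 to 18269977 on the forward strand, SAA2 at 18239223 to 18248643 and SAA4 at 18231349 to 18236893, both on the reverse strand. SAA1 and SAA2 encode the acute forms of serum amyloid A, an apolipoprotein of high-density lipoprotein that is the precursor of amyloid fibrils, and SAA4 encodes the constitutive form. The coding sequences of SAA1 and SAA2 have 366 bases each, without the stop codon, and 97.0% of these are identical, with 11 differing. Of those 11, 10 fall within coding bases 205 to 324. That stretch is shown because it holds most of the coding differences by which a read can tell the 2 genes apart. The differing bases are in capitals, and positions are counted from the first base of the start codon (GENCODE 29 transcripts).
SAA1: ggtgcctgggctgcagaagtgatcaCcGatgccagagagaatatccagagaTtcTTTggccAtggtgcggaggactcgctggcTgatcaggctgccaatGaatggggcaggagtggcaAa
SAA2: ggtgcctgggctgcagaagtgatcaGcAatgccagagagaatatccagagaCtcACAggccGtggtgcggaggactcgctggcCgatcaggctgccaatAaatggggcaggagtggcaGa

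Of all windows of 50 bases in the SAA1 coding sequence, 43.2% also occur in SAA2 transcripts, and reads from such windows cannot be assigned to either gene with certainty. No window of 50 bases is shared between SAA4 and SAA1 or SAA2, whose coding sequences are 73.5% and 72.7% identical to it over the aligned bases. The sources used here do not state how reads that match several places were counted.

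SAA1 had 2313, 2363 and 2102 FPKM in control replicates 1, 2 and 3, and 3339, 3290.5 and 3312 FPKM in fatty acid replicates 1, 2 and 3. The groups did not overlap, and the fatty acid libraries were closer to each other than the controls were. SAA1 rose 1.47-fold, a log2 fold change of 0.55 ± 0.06 (limma adjusted p = 0.00271). SAA2 had 313, 333 and 280.0 FPKM in the controls and 586, 589.9 and 575 FPKM with fatty acid, again without overlap. SAA2 rose 1.89-fold, with a log2 fold change of 0.92 ± 0.07 (limma adjusted p = 0.000347). The SAA1 call was lost with no expression filter (adjusted p = 0.102, range over the 18 alternatives 2.12e-06 to 0.102).

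SAA2 gained on SAA1. SAA1 exceeded SAA2 by 7.40, 7.10 and 7.51 times in the controls and by 5.69, 5.58 and 5.76 times with fatty acid, on the FPKM scale. The size of that excess depends on the gene lengths given above, but its change between groups does not. The log2 ratio fell by 0.37, from 2.87 ± 0.0417 to 2.51 ± 0.0235, and the groups did not overlap. An exact two-sided permutation test of 3 against 3 gave p = 0.1, the smallest it can give, and 0.1 after adjustment over the 3 ratios tested. With SAA1, SAA2 and the readthrough gene SAA2-SAA4 summed into 1 feature, the log2 fold change was 0.67 (limma adjusted p = 0.000935).

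SAA4 did not follow them. It had 6.14, 6.95 and 9.19 FPKM in the controls and 5.43, 6.61 and 6.39 FPKM with fatty acid, with overlapping groups. Its log2 fold change was -0.24 ± 0.14, with a 95% interval of -0.58 to 0.09 (limma adjusted p = 0.294). It was -0.09 without control replicate 3, -0.36 without control replicate 1 and -0.16 without fatty acid replicate 1, and none of these passed the test. SAA4 rested on 32 to 79 reads per library. Of its 727 exonic bases, 476 are also exonic in SAA2-SAA4, so its level depends on how reads in shared exons were assigned. SAA2-SAA4 itself held 1 to 4 reads per library, and the pseudogene SAA3P, whose mouse counterpart is a functional gene, was listed at 0 in every library.

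CRP, on chromosome 1 (159712289 to 159714589, reverse strand), encodes the pentraxin that binds phosphocholine on microbes and damaged cells and is measured clinically as a sign of inflammation. CRP had 101.9, 88.3 and 80.4 FPKM in the controls and 217, 191 and 194 FPKM with fatty acid. Every fatty acid library lay above every control, and in both groups replicate 1 was the highest. CRP rose 2.23-fold, with a log2 fold change of 1.15 ± 0.09 (limma adjusted p = 0.000476), and ranked 39 of 14661 genes by the size of the rise.

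CRP also rose relative to SAA1: the log2 ratio of CRP to SAA1 went from -4.65 ± 0.128 to -4.05 ± 0.09, without overlap (exact permutation p = 0.1, the smallest possible). APCS, the gene of the other short pentraxin, serum amyloid P, lies on the same chromosome and had 159.7 ± 7.18 and 149.7 ± 3.65 FPKM (log2 fold change -0.09 ± 0.05, limma adjusted p = 0.271). Its sign turned when libraries were rescaled to TPM (0.04), and with quantile normalization it was called lower (log2 fold change -0.18, adjusted p = 0.0377). CRP stood below APCS in all 3 controls, at 0.611, 0.579 and 0.504 of its FPKM, and above it in all 3 fatty acid libraries, at 1.42, 1.31 and 1.29 of its FPKM.

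LBP, on chromosome 20 (38346356 to 38377023, forward strand), encodes the lipopolysaccharide-binding protein, which passes bacterial lipopolysaccharide to CD14. LBP had 307, 275 and 260.0 FPKM in the controls and 505, 506 and 514 FPKM with fatty acid. The controls spread over a wider range than the fatty acid libraries, and the groups were apart. LBP rose 1.81-fold, with a log2 fold change of 0.86 ± 0.07 (limma adjusted p = 0.000403).

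LCN2, on chromosome 9 (128149071 to 128153455, forward strand), encodes lipocalin-2, which withholds iron from bacteria by binding their siderophores. LCN2 had 15.4, 18.3 and 12.5 FPKM in the controls and 45.1, 43.7 and 46.4 FPKM with fatty acid. This was the largest rise of the 10 genes: LCN2 rose 2.93-fold, a log2 fold change of 1.53 ± 0.12 (limma adjusted p = 0.000455), and ranked 18 of 14661 by the size of the rise. It rested on 642 reads in the controls together and 2787 with fatty acid.

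**Figure D3:**
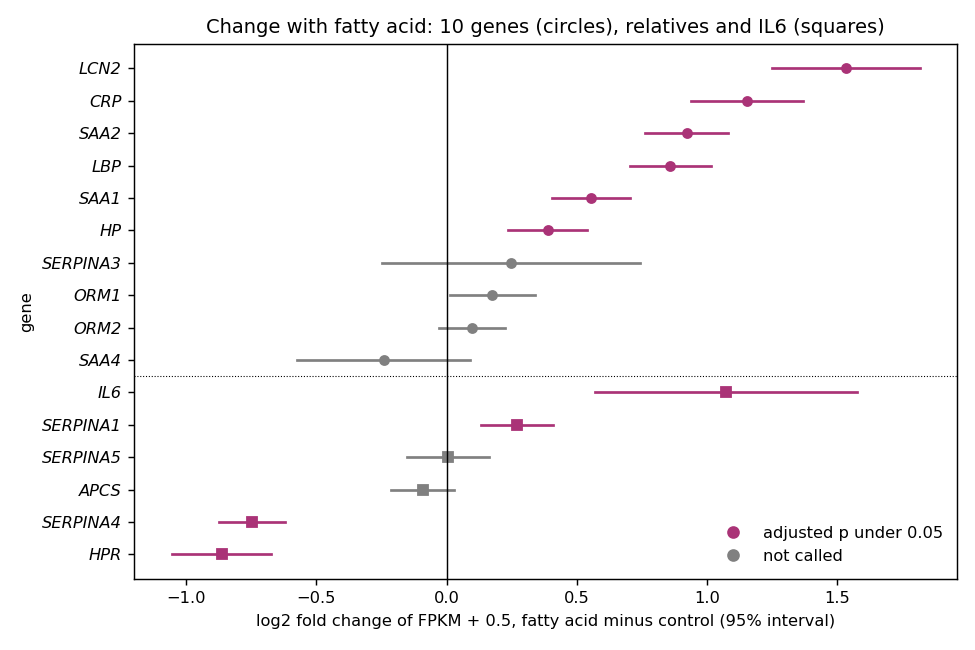
Log2 fold change of FPKM + 0.5, fatty acid minus control, with its 95% interval from limma, for the 10 acute-phase genes (circles) and for IL6 and relatives of the 10 genes (squares). LCN2 at 1.53 and CRP at 1.15 are farthest to the right, the intervals of SERPINA3, ORM2 and SAA4 include 0, and HPR lies at -0.86.

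Orosomucoid and haptoglobin are abundant carriers in plasma. ORM1 (chromosome 9, 114323056 to 114326475) and its neighbour ORM2 (114329869 to 114333252), both on the forward strand, encode the forms of alpha-1-acid glycoprotein, which binds many basic drugs. Their coding sequences have 603 bases each and are 94.9% identical, with 31 differing bases, and 36.1% of the windows of 50 coding bases are common to both. The 120 coding bases with most differences, 280 to 399, hold 20 of the 31 and are shown with those in capitals.
ORM1: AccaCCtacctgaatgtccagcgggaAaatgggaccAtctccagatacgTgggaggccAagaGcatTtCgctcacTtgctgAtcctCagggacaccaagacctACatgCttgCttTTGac
ORM2: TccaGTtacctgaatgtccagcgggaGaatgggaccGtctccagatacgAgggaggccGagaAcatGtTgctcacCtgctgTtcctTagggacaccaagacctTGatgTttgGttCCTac

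ORM1 had 5505, 5903 and 5490 FPKM in the controls and 6292, 6702 and 6087 FPKM with fatty acid. The groups did not overlap, but the gap between them was smaller than the range within either group. The log2 fold change was 0.18 ± 0.07, with a 95% interval of 0.01 to 0.34 (limma adjusted p = 0.142). ORM2 had 1053, 1052 and 1041 FPKM in the controls and 1117, 1176 and 1076 FPKM with fatty acid, and a log2 fold change of 0.10 ± 0.05 (95% interval -0.03 to 0.22, limma adjusted p = 0.265). TPM values, a scaling under which ORM1 was called (0.31 on the log2 scale, adjusted p = 0.0417), moved the median of all genes to 0.18. Quantile normalization gave ORM1 its highest value of the alternatives, 0.46, which was not called (adjusted p = 0.0709). The log2 ratio of ORM1 to ORM2 was 2.42 ± 0.0559 in controls and 2.502 ± 0.00894 with fatty acid, without overlap (exact permutation p = 0.1, the smallest possible). Summed into 1 feature, the pair had a log2 fold change of 0.16 (limma adjusted p = 0.143).

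HP, on chromosome 16 (72054592 to 72061055, forward strand), encodes haptoglobin, which captures free haemoglobin. HP had 1179, 1114 and 1275 FPKM in the controls and 1581, 1580 and 1506 FPKM with fatty acid, with no overlap. HP rose 1.31-fold, with a log2 fold change of 0.39 ± 0.07 (limma adjusted p = 0.0118). HP missed the threshold when fatty acid replicate 1 (adjusted p = 0.0706) or 2 (0.0602) was removed, with all genes kept (0.109) and with quantile normalization (log2 fold change 0.15, adjusted p = 0.105), in a range of 0.00027 to 0.109 over the alternatives.

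The next gene on the same strand, HPR (72063224 to 72077246), encodes haptoglobin-related protein, part of the trypanosome lytic factor of high-density lipoprotein. Its coding sequence is 95.6% identical to that of HP over the 1041 aligned bases, and 29.7% of its windows of 50 coding bases also occur in HP transcripts. HPR moved the other way: it had 24.9, 19.9 and 22.3 FPKM in the controls and 12.03, 11.98 and 12.08 FPKM with fatty acid, a fall of 0.86 ± 0.08 on the log2 scale (limma adjusted p = 0.00102). On the FPKM scale, HP exceeded HPR by 47.3 to 57.1 times in controls and by 124.7 to 131.9 times with fatty acid. The size of this excess depends on the gene lengths, but its change between groups does not. HP was given 5405 bases for a coding transcript of 1482, and HPR 1610 bases for 1244. The ratio of HP to HPR and that of CRP to APCS were chosen after their values were seen and were not tested.

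SERPINA3 encodes alpha-1-antichymotrypsin, an inhibitor of neutrophil cathepsin G. Its main row (chromosome 14, 94612384 to 94624055, forward strand) had 0.825, 0.695 and 1.015 FPKM in the controls and 1.08, 0.724 and 1.58 FPKM with fatty acid. The groups overlapped, and in both groups replicate 2 was the lowest and replicate 3 the highest. The log2 fold change was 0.25 ± 0.21, with a 95% interval of -0.25 to 0.74 (limma adjusted p = 0.468), from 22 to 126 reads per library. A single library moved this value: it was 0.05 without fatty acid replicate 3, 0.44 without fatty acid replicate 2 and 0.17 without control replicate 2, and none of these passed the test. The second row of that symbol (94592058 to 94624646) is a readthrough gene that GENCODE 29 names AL049839.2. It held 7 to 20 reads per library and its mean lay below the minimum of 0.5 FPKM for testing. It shares 1592 of the 5007 exonic bases that GENCODE 29 gives SERPINA3. The treatment of reads in shared exons is unstated, so the low level is not a reliable measure of the gene's abundance. SERPINA1, the antitrypsin gene nearby, had 2212 ± 102 and 2666 ± 55.7 FPKM (log2 fold change 0.27 ± 0.06, limma adjusted p = 0.0289) and was not called in 8 of 18 alternatives, among them the removal of any one of control replicates 2 and 3 (0.0782 and 0.0622) and fatty acid replicates 1, 2 and 3 (0.136, 0.0882 and 0.0732). SERPINA4 fell by 0.75 ± 0.05 on the log2 scale (limma adjusted p = 0.000316), and SERPINA5 had a log2 fold change of 0.00 ± 0.07 (0.971).

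Promoter sequence from RefSeq (GRCh38.p14) was at hand for 5 of the 10 genes: SAA4, CRP, ORM1, SERPINA3 and LCN2. The 250 bases before the RefSeq start were searched on both strands for 4 motifs: GGNNTTTCC for NF-κB, TTNNGNAA for C/EBP, TTCNNNGAA for STAT3 and GTTAATNAT for HNF1. CRP and LCN2 are shown because they rose most, and ORM1 beside them because it was not called. Bases inside an annotated exon are left out, the LCN2 stretch lies within the deposited bounds of its gene, and capitals mark motif matches.
CRP, chr1:159714590-159714839, reverse strand: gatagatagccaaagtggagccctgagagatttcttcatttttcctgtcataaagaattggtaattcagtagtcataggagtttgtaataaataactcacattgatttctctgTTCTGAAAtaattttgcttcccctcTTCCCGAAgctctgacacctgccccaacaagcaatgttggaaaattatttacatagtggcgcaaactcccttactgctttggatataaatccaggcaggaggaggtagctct
LCN2, chr9:128149265-128149440, forward strand: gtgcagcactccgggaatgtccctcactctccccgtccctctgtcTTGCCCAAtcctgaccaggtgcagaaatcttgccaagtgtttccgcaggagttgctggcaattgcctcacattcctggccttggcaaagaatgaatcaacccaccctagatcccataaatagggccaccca
ORM1, chr9:114322848-114323055, forward strand: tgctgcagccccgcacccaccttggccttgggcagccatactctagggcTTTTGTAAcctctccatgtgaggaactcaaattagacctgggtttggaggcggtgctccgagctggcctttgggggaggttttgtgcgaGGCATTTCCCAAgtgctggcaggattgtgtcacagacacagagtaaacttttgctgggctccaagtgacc

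The C/EBP letters occurred in CRP at 137 to 130 and 112 to 105 bases before the start, in LCN2 at 143 to 136 and in ORM1 at 201 to 194 and 108 to 101. SAA4, which was not called, had the most matches, 6, of which 4 lay outside exons, and SERPINA3 had 1, at 63 to 56 and inside an exon. These letters thus occurred in all 5 windows, in genes that rose and in genes that were not called, and they occur in 33.2% of all 35116 promoters searched the same way. The NF-κB letters occurred in ORM1 at 112 to 104, overlapping a C/EBP match, and in SERPINA3, there inside an exon, against 5.48% of all promoters. Neither the STAT3 letters (6.57% of all promoters) nor the HNF1 letters (0.723%) were in the windows of the 5 genes. For every motif, a match or its absence says only whether these exact letters are there. Variant sites with other letters or spacing were not searched, and which factor binds a match was not tested.

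Of 28 tested genes of cytokine receptors, transcription factors and feedback inhibitors, 7 rose, 1 fell and 20 did not pass, with a median log2 fold change of 0.23. STAT3 (log2 fold change 0.16), CEBPA (-0.68), CEBPB (0.15) and CEBPD (0.21) were not called (limma adjusted p = 0.0614, 0.0828, 0.165 and 0.154). Nor were the NF-κB genes NFKB1 (0.30), NFKB2 (-0.04), REL (0.29), RELA (-0.14) and RELB (0.33), with limma adjusted p = 0.0722, 0.876, 0.281, 0.243 and 0.107. The cytokine gene IL6 had 0.863, 1.91 and 1.35 FPKM in the controls and 4.16, 2.99 and 2.97 FPKM with fatty acid, from 74 and 259 reads in all. The groups of IL6 did not overlap, and its log2 fold change was 1.07 ± 0.22 (limma adjusted p = 0.0217). IL6 missed the threshold with all genes kept (0.0689), on removal of control replicate 3 (0.0589) and on removal of each fatty acid library (0.0903, 0.0721 and 0.0516 for replicates 1, 2 and 3), in a range of 0.00289 to 0.0903. IL1B lay below the minimum for testing, with 0.104 ± 0.0673 and 0.506 ± 0.107 FPKM from 9 and 58 reads, and TNF was listed at 0 in every library.

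Among the genes of this list called with the smallest p were TNFAIP3, an inhibitor of NF-κB signalling, which rose from 7.80 ± 0.214 to 15.1 ± 0.718 FPKM (limma adjusted p = 0.000229), OSMR, a receptor subunit for oncostatin M, from 17.6 ± 0.622 to 25.2 ± 1.29 FPKM (0.00299), and IL1R1, the interleukin-1 receptor, from 19.5 ± 0.911 to 26.0 ± 1.16 FPKM (0.00754). SOCS3, the feedback inhibitor of STAT3 signalling, which was picked after its values were seen, had 7.15 ± 1.18 and 12.5 ± 2.37 FPKM (0.0241). SOCS3 missed the threshold on removal of fatty acid replicate 1 or 3 (0.0989 and 0.0676), with all genes kept (0.0713) and with no intensity trend (0.0527). The number of the list's genes that rose was 11 without control replicate 1, 4 without control replicate 3, 3, 4 and 4 without fatty acid replicates 1, 2 and 3, 4 with all genes kept or with no intensity trend, and 16 with TPM. The gene that fell, TSC22D3, a glucocorticoid-induced leucine zipper protein, had 133.9 ± 1.53 and 113.5 ± 6.23 FPKM (0.0303), and it was named because it was the only one lower. Over all genes tested, 8.22% were called higher and 4.68% lower. On removal of control replicate 3 or of any fatty acid library the list had 0 genes lower. The same held with all genes kept, with TPM and with no intensity trend, and the alternatives ranged from 0 to 2.

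Of 22 tested genes in a list of other positive acute-phase proteins, 9 rose, 1 fell and 12 did not pass, with a median log2 fold change of 0.28. The fibrinogen chain genes rose together: FGA from 1316 ± 40.8 to 2093 ± 27.4 FPKM, FGB from 1185 ± 114 to 1937 ± 53.0 FPKM and FGG from 880.1 ± 35.2 to 1378 ± 28.3 FPKM (limma adjusted p = 0.000455, 0.00194 and 0.000571). PTX3, a long pentraxin, rose from 3.03 ± 0.345 to 10.6 ± 0.201 FPKM and TNFAIP6, a hyaluronan-binding protein, from 0.726 ± 0.228 to 4.80 ± 0.736 FPKM (8.74e-05 and 0.000356). PLA2G2A, a secreted phospholipase named because it was the single gene that fell, had 10.4 ± 0.938 and 7.66 ± 0.736 FPKM (0.0287). Over all genes tested, 8.22% were called higher and 4.68% were called lower. On removal of control replicate 2 or of any fatty acid library the list had 0 genes lower. The same held with all genes kept, with TPM and with no intensity trend, and the alternatives ranged from 0 to 3.

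The negative acute-phase list moved the other way, with 12 of 14 tested genes lower, none higher and a median log2 fold change of -0.71. Over all genes tested, 4.68% were called lower and 8.22% higher. The number of the list's genes lower ranged from 9 to 13 over the alternatives. Albumin (ALB) fell from 12025 ± 318 to 7127 ± 306 FPKM, the retinol carrier gene RBP4 from 2002 ± 176 to 1096 ± 46.6 FPKM and the thyroxine carrier gene TTR from 279.5 ± 17.5 to 115.7 ± 5.48 FPKM (limma adjusted p = 0.000882, 0.00076 and 8.74e-05). The iron carrier gene TF fell from 184.7 ± 6.24 to 89.1 ± 3.39 FPKM and AHSG, which encodes fetuin-A, from 24.6 ± 1.33 to 9.98 ± 0.68 FPKM (8.74e-05 and 0.000135). The ALB call was lost with no filter (adjusted p = 0.27) and with quantile normalization (log2 fold change -0.19, adjusted p = 0.184).

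**Figure D4:**
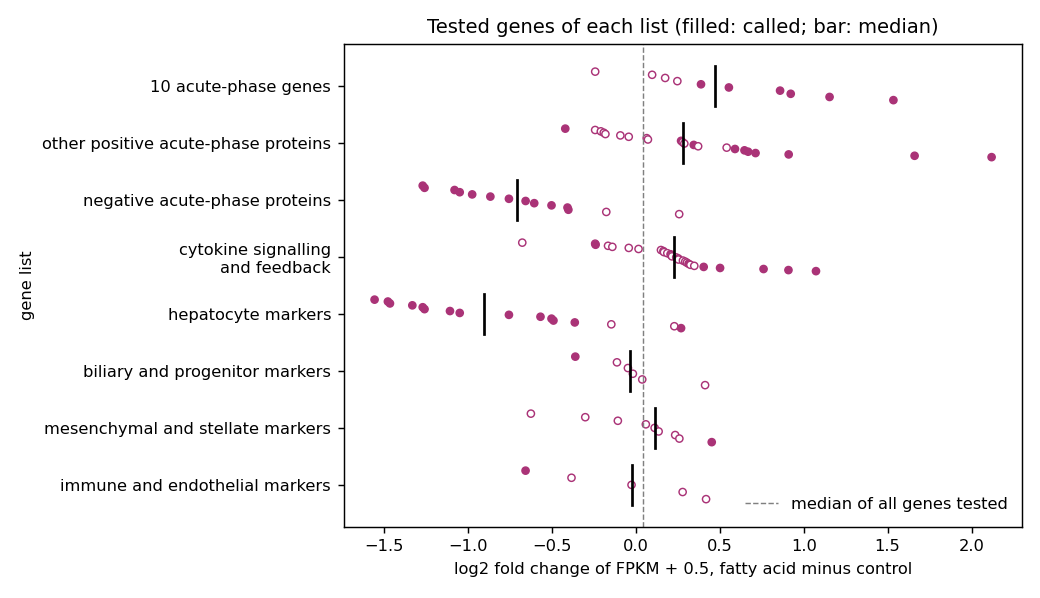
Log2 fold change of FPKM + 0.5, fatty acid minus control, for each tested gene of the 10 acute-phase genes and of 7 further gene lists, with filled points for called genes, a black bar at each list's median and a dashed line at the median of all genes tested (0.04). The medians are 0.47 for the 10 genes, 0.28 for other positive and -0.71 for negative acute-phase proteins.

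All 16 hepatocyte markers were detected, and 13 were lower and 1 (SERPINA1) higher with fatty acid. The background over all genes tested was 4.68% lower and 8.22% higher, and the number of these markers lower ranged from 9 to 13 over the alternatives. Their summed level was 15827 to 16343 FPKM in controls and 10849 to 11422 FPKM with fatty acid, and most of it came from ALB and SERPINA1. Others were low, such as the drug-metabolizing enzyme gene CYP3A4, with 3.22 FPKM in controls and 0.931 with fatty acid (limma adjusted p = 0.0102). TAT, which encodes tyrosine aminotransferase, had 3.93 FPKM in controls and 1.11 with fatty acid (0.000674). This list shares 5 genes with the negative acute-phase list (AHSG, ALB, APOA1, TF and TTR). CPS1, the first enzyme of the urea cycle, had the smallest p, with 40.1 ± 0.428 and 13.3 ± 0.28 FPKM (limma adjusted p = 3.06e-05). Biliary and progenitor markers summed to 447 to 522 FPKM in controls and 427 to 443 FPKM with fatty acid. Of 6 tested, CD24 was lower (adjusted p = 0.00474), KRT19 had 343 ± 36.6 and 316 ± 9.49 FPKM, and EPCAM was listed at 0. Of 9 tested mesenchymal and stellate markers, LUM was higher (limma adjusted p = 0.00846) and 8 did not pass. The list summed to 102.9 to 112 FPKM in controls and 120.1 to 128 FPKM with fatty acid, and LUM alone went from 44.3 to 60.7 FPKM. Its other members were mixed, with DCN at 17.9 and 21.1 FPKM, COL3A1 at 11.2 and 9.04 and COL1A1 at 1.41 and 0.741. None of these 3 was called (limma adjusted p = 0.0593, 0.06 and 0.0655). LUM missed the threshold on removal of fatty acid replicate 1 (0.0538), and CD24 did so with TPM (0.0513).

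Immune and endothelial markers summed to 73.8 to 83.0 FPKM in controls and 62.8 to 66.1 FPKM with fatty acid, mostly from KDR, S100A8 and CD14. Of 5 tested, KDR was lower (limma adjusted p = 0.00195) and 4 did not pass. The other endothelial markers lay below the minimum for testing. PECAM1 had 0.338 ± 0.0495 FPKM in controls and 0.54 ± 0.00208 with fatty acid, VWF 0.02 and 0.0107, and STAB2 0.014 and 0.0113. CD3E and MPO were listed at 0 in every library, and the leukocyte gene PTPRC had 0.00 and 0.0133 ± 0.0126 FPKM. The part of the hepatocyte and mesenchymal marker changes in the results for the 10 genes was not tested.

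The genes whose profile over the 6 libraries was closest to that of 3 members are given as a description. Distance is the root mean square difference of log2(FPKM + 0.5) values, each gene centred on its own mean. Closest to SAA1 were GARS, MT1E and HADHA, at 0.0288, 0.0296 and 0.0456. Closest to CRP were LTF, CHI3L2 and ADAMTS9, at 0.0908, 0.102 and 0.129, of which LTF had a mean of 0.166 FPKM in controls and 0.87 with fatty acid. LTF reached the minimum of 0.5 FPKM only through its fatty acid level. The added 0.5 makes its change come out too small, so its place beside CRP depends on that scale. Closest to LCN2 were PTX3, PLIN2 and ADAMTS9, at 0.102, 0.132 and 0.144. The libraries fall into 2 groups, so these distances mostly reflect the difference between groups.

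**Figure D5:**
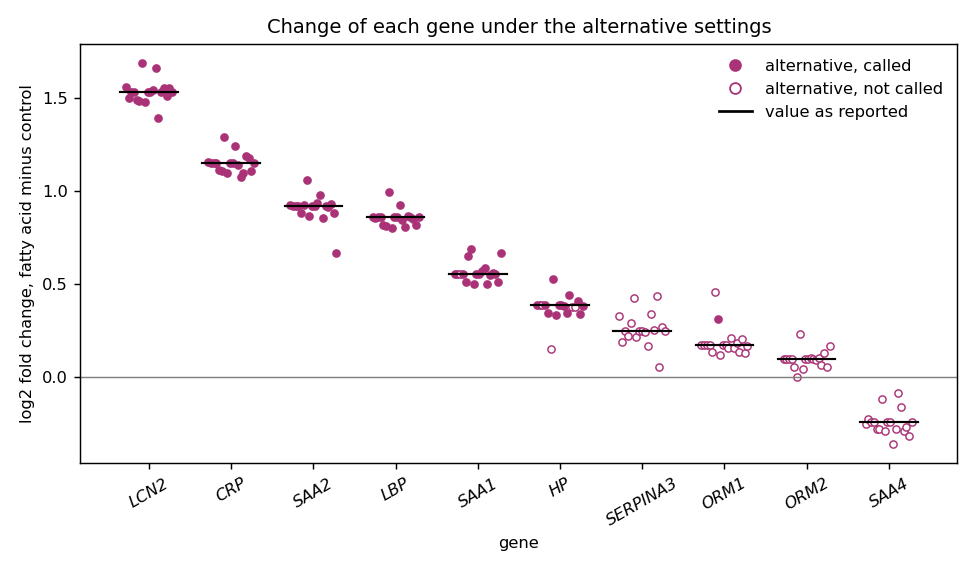
Log2 fold change, fatty acid minus control, of each of the 10 genes under each alternative setting, with filled points where the gene was called, open points where it was not and a black line at the value reported. LCN2, CRP, SAA2 and LBP were called in every alternative run, HP has 4 open points and SAA1 has 1.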

How the data were processed

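Total RNA of 6 HepaRG samples (3 control, 3 fatty acid) was made into stranded mRNA libraries from 100 ng per sample, per the labels' protocols. STAR 2.5.2, Subread 1.5.1 with featureCounts, and the build GRCh38 are named in the submitters' processing notes. The authors deposited FPKM values with 3 decimals beside the position and length of every gene, per the file headers. The strand setting and the treatment of reads that match several genes are not given in the sources used here. FPKM times length came out as whole multiples of 1 step for 100% of the values that could be told (tolerance 0.02 reads beyond rounding), which gave reads per gene and the depth per library.

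The test was limma (3.58.1, R 4.3.3) with an intensity trend and no covariate, on log2(FPKM + 0.5), fatty acid against control, over the 14661 genes whose mean reached 0.5 FPKM. The 10 genes and the lists were chosen with earlier results of these data known. Ratios within a library were compared by exact two-sided permutation tests. Genes named were the 10, their relatives, IL6, IL1B and TNF, and for each list up to 4 called genes with the smallest adjusted p and those reaching 1000 FPKM, plus the 3 genes nearest in profile to SAA1, CRP and LCN2. SOCS3, PLA2G2A, TSC22D3 and the markers KRT19, EPCAM, DCN, COL3A1, COL1A1, S100A8, CD14, CD3E, MPO, PTPRC, CYP3A4 and TAT fall outside that rule and were chosen after their values were seen. The same holds for PECAM1, VWF, STAB2, STAT3, CEBPA, CEBPB, CEBPD and the NF-κB genes NFKB1, NFKB2, REL, RELA and RELB. APOA1 is named only as a gene shared by 2 lists. Shared exons and coding transcripts are from GENCODE 29, whose gene bounds differed slightly from the deposited ones for SERPINA3 and HPR. Python 3.11.15, scipy 1.17.1 and matplotlib 3.10.9 were used for the rest.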

Additional observations from a re-analysis of the deposited data

How the results depend on the processing

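Each of the 10 genes was recomputed with pseudocounts of 0.1 and 1, no filter and a minimum of 2 FPKM, 4 other scalings, no intensity trend, the replicate block, voom on recovered reads, near-identical neighbours summed, and each library left out. SERPINA3 could not be tested at the minimum of 2 FPKM. No gene of the 10 reversed its direction, though ORM2 was at 0.00 with quantile normalization, and of 179 such values 173 kept their side of the threshold. The number of the 10 genes called higher was 5 to 6 over the libraries left out and 4 to 7 over all alternatives, and none was called lower. APCS turned to a log2 fold change of 0.045 with TPM. Leaving out a library moved the log2 ratio difference between -0.39 and -0.35 for SAA1 to SAA2, 0.06 and 0.11 for ORM1 to ORM2, and 0.55 and 0.68 for CRP to SAA1.

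Over all genes, 1205 were called higher and 686 lower. No filter gave 640 and 337, TPM 2615 and 408, median-of-ratios scaling 779 and 818, quantile normalization 758 and 772, nuclear scaling 706 and 828, no trend 642 and 459, and voom 1267 and 1448. Leaving out 1 library gave 230 to 1105 higher and 232 to 677 lower, lowest without fatty acid replicate 1. The cause was not tested. Deviations of same-numbered libraries correlated at 0.01, 0.08 and 0.02, and those of the other pairs at -0.09 to 0.07. Not every library correlated best with its own number. With 3 libraries per group these deviations are not independent, so they cannot decide whether the replicate number pairs the samples. With the replicate block 817 genes were higher and 657 lower, the same 6 genes of the 10 were called, and their log2 fold changes were as reported (HP 0.39, adjusted p = 0.0289). Depth limits SERPINA3 and SAA4, at 22 to 126 and 32 to 79 reads per library.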
